A study of Mus musculus with 6 samples.

Results

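The interleukin-1 (IL-1) receptor cluster of mouse chromosome 1 holds Il1r2, Il1r1, Il1rl2, Il1rl1, Il18r1 and Il18rap. These genes were described together with Il33, whose product is the ligand of the Il1rl1 receptor, and Il1rap, which encodes the co-receptor chain that several of these receptors share. The 8 genes were chosen by their symbols, and each of them was found in 1 of the 35976 rows of the count table. RNA-seq was performed on brown adipose tissue (BAT) of 3 sST2-KO mice and 3 WT littermates, all on the C57BL/6J background, male and 10 weeks old. In sST2-KO mice, the intron of Il1rl1 that contains the stop codon of the soluble form, sST2, had been removed with CRISPR/Cas9, which left the coding exons of the membrane form, ST2L, in place. The mice were bred from heterozygous parents, so the deletion was not limited to BAT. Both groups had undergone BAT denervation and had then been kept at 10 °C for 8 h. Therefore no library came from an innervated or a warm-housed mouse, and the comparison was that of genotypes within denervated and cold-exposed BAT.

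Receptors of the IL-1 family pair a ligand-binding chain with an accessory chain, and the joined intracellular domains recruit the adaptor MyD88 and IRAK kinases, which leads to activation of NF-κB. The family also contains decoys: the Il1r2 product binds IL-1 but cannot signal, and sST2 binds IL-33 outside the cell. In adipose tissue, IL-33 made by stromal cells is known to act on ST2-bearing regulatory T cells and type 2 innate lymphoid cells (ILC2s), and ST2 is also found on mast cells.

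The soluble and membrane forms of ST2 differ in how exon 8 of Il1rl1 ends. In the ST2L transcript, exon 8 is spliced to exon 9, and the intron between them spans 3399 bases. In the sST2 transcript, the reading frame runs past the splice site into that intron and reaches a stop codon at chr1:40485862-40485864 (GRCm39, plus strand). Both sequences start with the last 30 bases of the shared exon 8, in lower case, and the bases that belong to only 1 form are in capitals. The capitals of sST2 end with its stop codon and lie in the deleted intron, and those of ST2L open exon 9.
sST2: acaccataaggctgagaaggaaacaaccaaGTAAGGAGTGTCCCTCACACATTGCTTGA
ST2L: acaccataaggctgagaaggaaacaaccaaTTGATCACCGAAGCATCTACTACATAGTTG
The first capitals of sST2, GT, are the splice donor used in ST2L. By the annotation, sST2 has 337 residues and ST2L 567. The deleted intron holds 1473 of the 6894 exon bases counted for Il1rl1 over all annotated transcripts, or 21.4%. The counts per gene add up both forms, so they cannot show which form was made, nor do they check the genotype. The 1473 deleted bases could yield counts only in WT libraries, so the counts are not a like measure of Il1rl1 output in both genotypes.

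The 6 receptor genes of the cluster lie on the plus strand of chromosome 1 within 477627 bases (GRCm39), in the order Il1r2 (chr1:40113239-40164391), Il1r1 (chr1:40264174-40356417), Il1rl2 (chr1:40363708-40406734), Il1rl1 (chr1:40468730-40504575), Il18r1 (chr1:40504712-40540014) and Il18rap (chr1:40554522-40590865). The spacing is uneven, and the end of Il1rl1 is 136 bases from the start of Il18r1, whereas 61995 bases separate Il1rl2 from Il1rl1. Il33 is on chromosome 19 (chr19:29902483-29938933) and Il1rap on chromosome 16 (chr16:26400350-26548880). Il1rl1 has a distal and a proximal promoter, and these are shown with the promoter of Il18rap as examples of genes that were higher in sST2-KO BAT. Each sequence is the 250 bases before the start on the plus strand (RefSeq, GRCm38.p6), and an exact match placed them on GRCm39 at chr1:40468480-40468729, chr1:40478539-40478788 and chr1:40554272-40554521. The capitals mark GATAA, a core of GATA factor motifs, and TGACG, a core of CREB motifs, which were searched on both strands (TTATC and CGTCA on the minus strand). These motifs were chosen after the sequences were seen.
Il1rl1 distal promoter: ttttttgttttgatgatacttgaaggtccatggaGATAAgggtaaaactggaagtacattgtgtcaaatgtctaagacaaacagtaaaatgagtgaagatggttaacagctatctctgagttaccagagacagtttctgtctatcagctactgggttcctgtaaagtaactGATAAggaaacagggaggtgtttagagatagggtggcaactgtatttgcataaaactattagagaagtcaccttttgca
Il1rl1 proximal promoter: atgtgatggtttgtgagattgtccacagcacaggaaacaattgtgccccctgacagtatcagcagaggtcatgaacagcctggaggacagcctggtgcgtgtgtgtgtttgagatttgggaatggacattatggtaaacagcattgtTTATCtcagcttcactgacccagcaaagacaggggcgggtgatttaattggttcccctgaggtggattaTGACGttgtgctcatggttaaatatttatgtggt
Il18rap promoter: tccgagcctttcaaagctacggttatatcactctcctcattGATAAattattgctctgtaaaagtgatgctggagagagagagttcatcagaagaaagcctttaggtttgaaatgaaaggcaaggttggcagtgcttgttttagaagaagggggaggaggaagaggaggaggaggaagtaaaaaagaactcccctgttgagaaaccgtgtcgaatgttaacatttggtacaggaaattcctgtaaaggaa
The distal promoter of Il1rl1 contained GATAA 216 and 79 bases before the start, and the proximal promoter contained it on the minus strand at 103 bases, besides TGACG at 34 bases. The Il18rap promoter contained GATAA at 209 bases. Of the other genes called higher, Il1r2 had GATAA on the minus strand at 86 bases, and the 3 promoters of Il18r1 contained neither motif. Genes not called had matches too: a promoter of Il33 had GATAA at 150 bases, and a promoter of Il1r1 had TGACG on the minus strand at 23 bases. The promoters of Il1rl2 and Il1rap contained neither motif. Of all 32851 RefSeq promoter windows of this length, 22.6% contained GATAA and 17.8% contained TGACG, so neither motif is rare, and a match describes letters and not a bound site.

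The counts summed to between 8159442 and 12874809 per library. They were normalized with edgeR's TMM method and are given as CPM, counts scaled to a common library size. The values of a group are listed in the order of replicates 1 to 3, and errors of fold changes are standard errors (SE). The 14542 genes with enough counts were tested with edgeR's quasi-likelihood test and Benjamini-Hochberg adjustment, and a gene was called higher or lower at an adjusted p under 0.05. Markers of brown adipocytes, such as Ucp1, were abundant in WT BAT, where the 6 of them summed to between 8019 and 15144 CPM. In sST2-KO BAT, they summed to between 324 and 1743 CPM, and all 6 were lower by the test, against 9.10% of all genes. Skeletal muscle transcripts summed to between 6.29 and 1209 CPM in WT and between 3441 and 14861 CPM in sST2-KO libraries, although none of the 8 passed the test. Their part in the results below was not tested. In bulk tissue, more cells of a type and more RNA per cell cannot be told apart.

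Most receptor genes of the cluster were more abundant in sST2-KO than in WT BAT. All 8 members were tested. Il1rl1, Il1r2, Il18r1 and Il18rap were called higher, that is 4 of 8, against 10.5% of all genes tested. In either direction, 19.6% of all genes were called. All 4 also passed a 2-fold limit, as 9.04% of all genes did in that direction and 7.10% in the other. By the test without this limit, 0 of the 8 members and 9.10% of all genes were called lower. With 8 members, 0 is near that share and does not set them apart. DESeq2 called 5 members higher and 0 lower, against 12.2% and 10.9% of all genes it tested. The 3 sST2-KO libraries all exceeded the 3 WT libraries in 5 members, the 4 above and Il1r1, and 21.8% of all genes did so. The reverse was true of 0 members and 19.7% of all genes. The log2 fold change was positive in 7 of 8 members, with a median of 1.84, whereas it was positive in 52.0% of all genes tested, with a median of 0.034. Every member had its highest level in sST2-KO replicate 3. Il1rl2 and Il33 had their lowest level in sST2-KO replicate 1, and the other 6 members had it in a WT library.

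**Figure D1:**
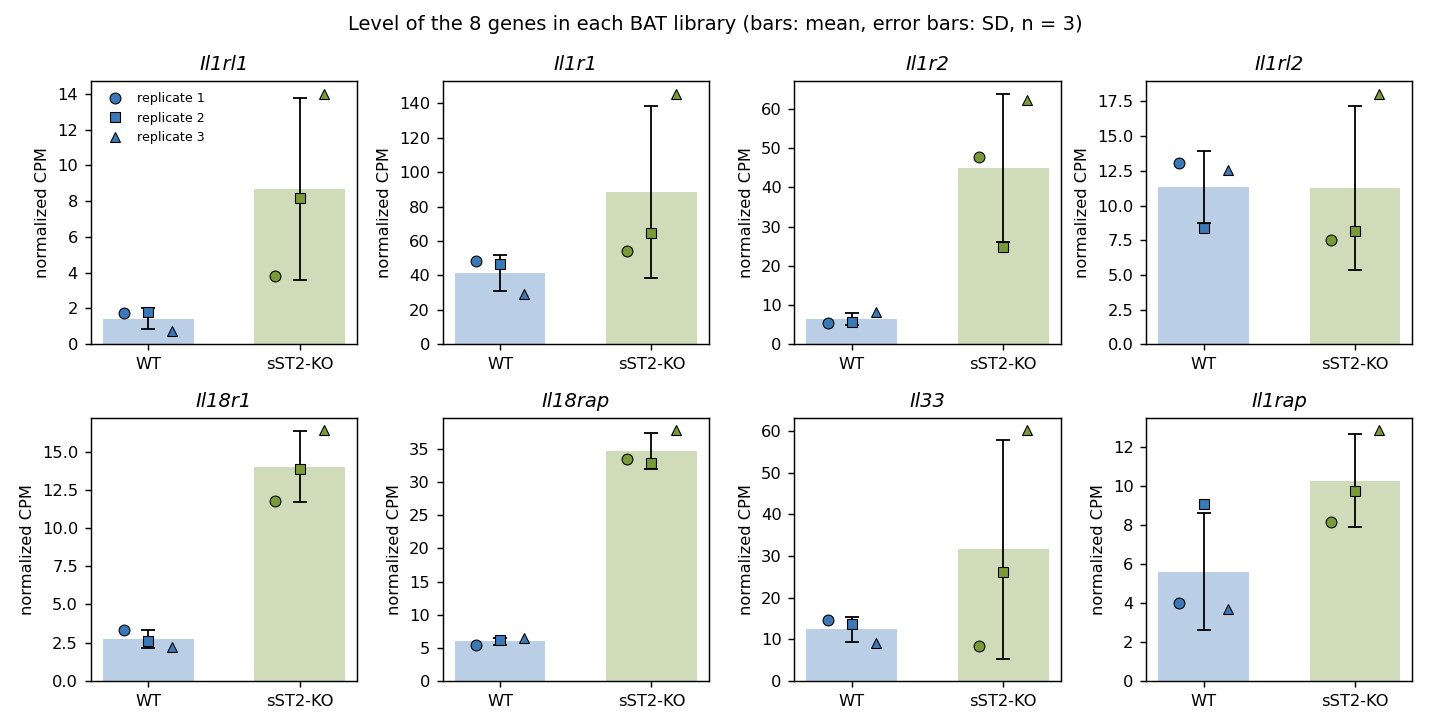
Normalized CPM (vertical axes, linear and starting at 0) of the 8 genes in 3 WT and 3 sST2-KO BAT libraries, with bars for the mean, error bars for the SD and a symbol for each replicate. The groups are apart for Il1rl1, Il1r1, Il1r2, Il18r1 and Il18rap, overlap for Il1rl2, Il33 and Il1rap, and the triangle of sST2-KO replicate 3 is the highest in every panel.

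Among the IL-1 receptors, the decoy rose most. Il1r2 encodes the receptor that captures IL-1 without signalling, and it is known from neutrophils and macrophages. Its level was 5.32, 5.65 and 8.26 CPM in WT libraries and 47.8, 24.8 and 62.4 CPM in sST2-KO libraries. The lowest sST2-KO library was thus well above the highest WT library. This gave a log2 fold change of 2.82 (SE 0.38, adjusted p = 0.0122 by edgeR's quasi-likelihood test). When WT replicate 3 was left out, it was 3.03 with an adjusted p of 0.0563. Neutrophil markers summed to between 31.9 and 137 CPM in WT and between 151 and 731 CPM in sST2-KO libraries, with 3 of 7 called higher. Macrophage markers summed to between 221 and 376 CPM and between 425 and 1422 CPM, with 1 of 6 called higher (Itgam, which neutrophils also express), against 10.5% of all genes. The macrophage sums of sST2-KO replicates 1 and 2, 448 and 425 CPM, were close to the WT range, and that of replicate 3 was far above it. Whether these cells account for Il1r2 was not tested.

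Il1r1 encodes the signalling receptor for IL-1. It had 48.3, 46.8 and 29.1 CPM in WT libraries and 54.4, 64.7 and 146 CPM in sST2-KO libraries. The groups did not overlap, but the closest libraries differed by little and sST2-KO replicate 3 was far above the other two. A log2 fold change of 1.09 (SE 0.40) was found with an adjusted p of 0.0940 by edgeR's quasi-likelihood test, so that Il1r1 was not called. DESeq2 gave 1.08 with an adjusted p of 0.0483, and edgeR gave 0.52 with an adjusted p of 0.252 when sST2-KO replicate 3 was left out.

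The decoy was also compared with the signalling receptor within each library. The ratio of Il1r2 to Il1r1 counts within a library was 0.110, 0.121 and 0.284 in WT libraries. It was 0.878, 0.383 and 0.428 in sST2-KO libraries, so each sST2-KO library was above each WT library. The mean ratio on the log scale was 3.37-fold higher in sST2-KO BAT. An exact two-sided permutation test gave p = 0.1, the smallest value that 3 against 3 libraries allow, and 0.15 after Benjamini-Hochberg adjustment over the 6 ratios computed. Such a ratio does not depend on the scaling of the libraries.

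Il1rap encodes the accessory chain of the IL-1, IL-33 and IL-36 receptors. It had 4.01, 9.05 and 3.70 CPM in WT libraries and 8.15, 9.73 and 12.8 CPM in sST2-KO libraries. WT replicate 2 lay within the sST2-KO range. Il1rap had a log2 fold change of 0.87 (SE 0.40, adjusted p = 0.166 by edgeR's quasi-likelihood test), and the gene was not called. A total of 1425 exon bases of Il1rap overlap the antisense gene Gm20319, and since the use of strand in the counting was not stated, reads of the pair may not have been separated.

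Il1rl2 encodes the receptor for IL-36 cytokines and had the log2 fold change closest to 0 of the 8 members. It had 13.1, 8.39 and 12.6 CPM in WT libraries and 7.53, 8.19 and 18.1 CPM in sST2-KO libraries. The sST2-KO libraries lay on both sides of the WT range. Its log2 fold change of -0.011 (95% confidence interval -0.92 to 0.90, adjusted p = 0.989 by edgeR's quasi-likelihood test) has an interval that still allows a nearly 2-fold change either way. Its sign changed with the processing and with the library left out, from -0.54 without sST2-KO replicate 3 to 0.26 with scaling by total counts. Il1rl2 lies between Il1r1, which was not called either, and Il1rl1. The genes called higher are thus not an unbroken run along the chromosome, but the interval of Il1rl2 does not show that its level was unchanged.

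The chains of the IL-18 receptor gave the most even differences. Il18r1 encodes the chain that binds IL-18, and Il18rap encodes its signalling partner. Both are known from T cells and NK cells. Il18r1 had 3.36, 2.64 and 2.22 CPM in WT libraries and 11.8, 13.9 and 16.4 CPM in sST2-KO libraries. Its groups were far apart, with a log2 fold change of 2.34 (SE 0.28, adjusted p = 0.0100 by edgeR's quasi-likelihood test). The call was lost when WT replicate 3 was left out (2.21, adjusted p = 0.0563).

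Il18rap had 5.41, 6.22 and 6.41 CPM in WT libraries and 33.5, 32.9 and 37.8 CPM in sST2-KO libraries. The highest and lowest libraries of a group differed by only 1.18-fold in WT and 1.15-fold in sST2-KO BAT, the narrowest spread of the 8 members in either group. On the log2 scale the fold change was 2.53 (SE 0.20, adjusted p = 0.00596 by edgeR's quasi-likelihood test), and Il18rap remained called with each of the 6 libraries left out in turn, the only member to do so. The ratio of Il18rap to Il18r1 counts was 1.61, 2.36 and 2.89 in WT and 2.84, 2.37 and 2.31 in sST2-KO libraries, so that the groups overlapped (1.12-fold, exact two-sided permutation p = 0.8). Both chains thus differed between the genotypes in a similar proportion, although 3 libraries a group would not resolve a modest shift.

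T cell markers summed to between 11.2 and 13.2 CPM in WT and between 93.1 and 120 CPM in sST2-KO libraries, and all 6 of them (Cd3d, Cd3e, Cd3g, Cd2, Cd5 and Lck) were called higher. NK cell markers summed to between 24.2 and 46.6 CPM and between 230 and 362 CPM, with 5 of 6 called higher. Of all genes tested, 10.5% were called higher. None of the markers of either list was at 0 in a group. The part of these cells in the levels of Il18r1 and Il18rap was not tested.

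**Figure D2:**
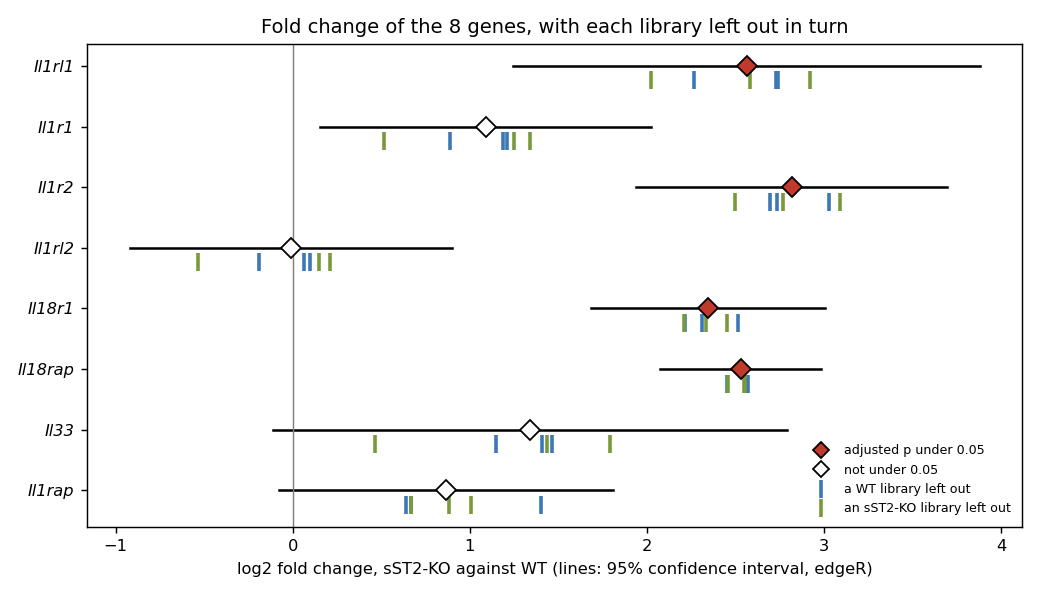
Log2 fold change of each gene in sST2-KO against WT BAT (horizontal axis), with diamonds for the fit of all 6 libraries, lines for its 95% confidence interval and ticks for the fits that leave out 1 library. Red diamonds mark adjusted p under 0.05; the ticks of Il18rap lie closest together, and those of Il33 and Il1r1 drop when sST2-KO replicate 3 is left out.

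Il1rl1, the targeted gene, was the least abundant member in WT BAT when levels were set per kilobase of exon. Its counts were 19, 19 and 6 in WT libraries and 55, 69 and 142 in sST2-KO libraries, which gave 1.77, 1.79 and 0.740 CPM and 3.83, 8.19 and 14.0 CPM. The groups did not overlap, and the sST2-KO libraries spread over 3.66-fold. Its log2 fold change was 2.56 (95% confidence interval 1.25 to 3.88, adjusted p = 0.0239 by edgeR's quasi-likelihood test). The 1473 exon bases in the deleted intron could yield counts only in WT libraries, which limits this value and the ratios with Il1rl1 below. The call was weak. It was lost without WT replicate 1, 2 or 3 (adjusted p = 0.0515, 0.0658 and 0.0936) and without sST2-KO replicate 3 (0.0541), while the log2 fold change stayed between 2.02 and 2.92 with any library left out.

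Il1rl1 was then set against its co-receptor. The ratio of Il1rl1 to Il1rap counts was 0.442, 0.198 and 0.200 in WT and 0.470, 0.841 and 1.09 in sST2-KO libraries. The groups were apart, but WT replicate 1 and sST2-KO replicate 1 were nearly equal. The mean ratio was 2.91-fold higher (exact two-sided permutation p = 0.1, adjusted p = 0.15 over 6 ratios).

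Markers of cells known to carry ST2 gave mixed results. The regulatory T cell list summed to between 19.3 and 26.9 CPM in WT and between 65.4 and 78.4 CPM in sST2-KO libraries. Most of this difference came from Ctla4, with a mean of 0.905 CPM in WT and 39.3 CPM in sST2-KO libraries. Of the 6 tested markers of the list, Ctla4, Il2ra and Tnfrsf18 were called higher, against 10.5% of all genes. Foxp3, which defines these cells, was not among them, at a log2 fold change of -0.43 (SE 0.26, adjusted p = 0.276 by edgeR's quasi-likelihood test), and Ccr8 had at most 2 counts in any library. Of 6 ILC2 markers, Gata3, Il7r and Klrg1 were called higher, again against 10.5% of all genes, and T cells also express all of these. Il17rb and Hs3st1 had log2 fold changes of -0.62 and -0.38 and were not called. Both were lower in every sST2-KO than in every WT library, as were 19.7% of all genes tested. The summed ILC2 markers were between 33.9 and 42.8 CPM in WT and between 44.5 and 74.7 CPM in sST2-KO libraries. Most of these sums came from Rora, with a mean of 29.3 CPM in WT and 44.8 CPM in sST2-KO libraries. Rora was not called (log2 fold change 0.61), and its groups overlapped. Mast cell markers overlapped between the groups (76.0 to 165 CPM and 95.4 to 170 CPM), 0 of 3 tested were called, and Ms4a2 was at 0 in all WT libraries. Hdc, which other cells also express, made up most of these sums. Cpa3 had 1.77, 1.13 and 1.11 CPM in WT and 1.88, 1.66 and 15.7 CPM in sST2-KO libraries, and was not called (log2 fold change 2.24, adjusted p = 0.121 by edgeR's quasi-likelihood test). Fcer1a and Tpsab1, which were not tested, had 36 and 27 counts in sST2-KO replicate 3 and at most 9 counts in any other library. Ms4a2 was also highest there, with 6 counts. In contrast, Kit was highest in sST2-KO replicate 2 (37.4 CPM, against 25.0 CPM in replicate 3) and Hdc in WT replicate 2 (145 CPM). The library sST2-KO replicate 3 had the highest level of all 8 members, so its markers are not particular to Il1rl1. How far these cells contribute to Il1rl1 was not tested.

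Over the 6 libraries, the tested genes most similar to Il1rl1 by Pearson's r of log2 CPM were Plcg2 and Hdac1 (r = 0.998 for both), C920009B18Rik (0.997) and Cd180 (0.996). Plcg2 is a phospholipase of immune receptor signalling and Cd180 a surface protein of B cells and macrophages. The same 6 libraries and the same group difference lie behind all these values, so they describe likeness only.

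Il33, the ligand, had the widest spread of the 8 members within the sST2-KO group, with 7.20-fold between its highest and lowest library, against 1.63-fold within WT. It had 14.6, 13.7 and 9.0 CPM in WT libraries and 8.36, 26.2 and 60.2 CPM in sST2-KO libraries. sST2-KO replicate 1 was below every WT library, and the other sST2-KO libraries were above them. The log2 fold change was 1.34 (95% confidence interval -0.11 to 2.79, adjusted p = 0.166 by edgeR's quasi-likelihood test). Single libraries decided this value: without sST2-KO replicate 1 it was 1.79 and called (adjusted p = 0.0331), and without sST2-KO replicate 3 it was 0.46 (adjusted p = 0.578). Markers of fibroblasts and adipose progenitors, known sources of IL-33, also overlapped between the groups, with sums of 1593 to 5061 CPM in WT and 914 to 8148 CPM in sST2-KO libraries. Most of these sums came from the collagen genes Col1a1 and Col3a1, both lowest in sST2-KO replicate 1 and highest in sST2-KO replicate 3. Pdgfra was also highest in sST2-KO replicate 3, with 28.2, 31.3 and 89.8 CPM in sST2-KO libraries, but lowest in WT replicate 2 (27.5 CPM). Over all libraries, the other markers were ordered differently. Dcn was highest in WT replicate 1, as was Dpp4 by little (12.5 CPM, against 12.4 CPM in sST2-KO replicate 3). Pi16 was higher in every WT than in every sST2-KO library. Within the sST2-KO group, however, Dcn, Dpp4 and Pi16 were also highest in replicate 3. Of the list, 0 of 6 were called, against 19.6% of all genes in either direction. Endothelial markers summed to between 1036 and 1247 CPM and between 976 and 1609 CPM, and were lowest in sST2-KO replicate 3. Whether the cell content sets the Il33 level was not tested. A total of 159 exon bases of Il33 overlap the antisense gene Gm41832, to which the same limit as for Il1rap applies.

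The genes most similar to Il33 over the 6 libraries were Kdelr2 (Pearson's r of log2 CPM 0.993), Bcat1 (0.990), Homer1 (0.988), Lrrc4 (0.987) and Cmtm3 (0.986), none of which was called. None of the 5 was shared with the genes most similar to Il1rl1.

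The ligand was also compared with its receptor within each library. The ratio of Il33 to Il1rl1 counts was 8.26, 7.63 and 12.2 in WT libraries and 2.18, 3.20 and 4.30 in sST2-KO libraries. Every sST2-KO library was below every WT library, also sST2-KO replicate 3, in which both genes had their highest level. On the log2 scale, the mean ratio differed by -1.56 (exact two-sided permutation p = 0.1, adjusted p = 0.15 over 6 ratios). The WT ratios rest on as few as 6 Il1rl1 counts.

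**Figure D3:**
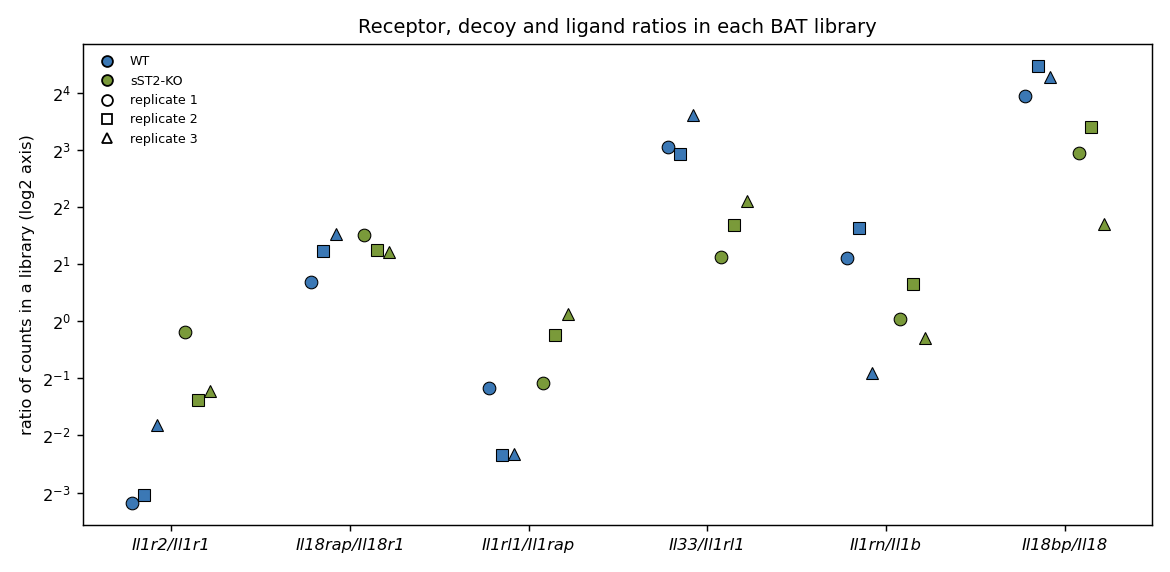
Ratios of counts within each library (vertical axis, log2 scale) for 6 pairs of genes, with colours for the groups and symbols for the replicates. The WT and sST2-KO points are apart for Il1r2/Il1r1, Il1rl1/Il1rap, Il33/Il1rl1 and Il18bp/Il18 and overlap for Il18rap/Il18r1 and Il1rn/Il1b.

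The order of the members by level also differed between the groups. In CPM per kilobase of annotated exon, Il1r1 led in WT BAT with 6.08 ± 1.57 (SD, n = 3), followed by Il1r2 with 2.54 ± 0.639, Il33 with 2.01 ± 0.488 and Il1rl2 with 1.65 ± 0.373. The last 3 of these levels overlapped from one to the next. Il18rap, below Il1rl2 in all WT libraries, followed with 0.891 ± 0.0786, Il18r1 with 0.556 ± 0.117, Il1rap with 0.366 ± 0.196 and Il1rl1 with 0.208 ± 0.0873. Of these neighbouring levels, only the ranges of Il18rap and Il18r1 were apart. Il1rap was above Il1rl1 within each WT library, but their ranges overlapped. In sST2-KO BAT, Il1r2 with 17.8 ± 7.52 CPM per kilobase and Il1r1 with 13 ± 7.34 led and overlapped. Il18rap had 5.14 ± 0.401, Il33 5.11 ± 4.26, Il18r1 2.84 ± 0.469, Il1rl2 1.64 ± 0.858, Il1rl1 1.26 ± 0.742 and Il1rap 0.670 ± 0.156 CPM per kilobase, and the spread of Il33 covered its neighbours on both sides. The 4 lowest of these overlapped from one to the next. The exons of all transcripts of a gene were summed, which lowers the value of a gene with many unused exons, such as Il1rap with 15282 exon bases. For Il1rl1, the sum includes bases that are deleted in sST2-KO mice.

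Across the 6 libraries, the 21 pairs of members without Il1rl2 had Pearson's r of log2 CPM between 0.48 and 0.98, with a median of 0.80. Il18r1 and Il18rap were the closest pair. The 7 pairs with Il1rl2 lay between -0.11 and 0.56, with a median of 0.076. These values are a description of 6 libraries that share the group difference.

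To compare the cluster with its surroundings, genes that start within 1 Mb of the Il1rl1 start were examined. Besides Il1rl1 and the other 5 receptor genes, 20 of them were in the count table and 6 were expressed highly enough to be tested. None of the 6 was called by edgeR's quasi-likelihood test, against 19.6% of all genes called in either direction. By the same test, Rnf149 had an unadjusted p of 0.0284 and Tbc1d8 of 0.0394. Rnf149, a ubiquitin ligase gene, had 18.4, 28.6 and 19.1 CPM in WT and 32.9, 29.8 and 96.6 CPM in sST2-KO libraries, a log2 fold change of 1.27 (SE 0.47, adjusted p = 0.0956) without overlap. The values of Tbc1d8, Cnot11, Map4k4, Mfsd9 and Tmem182 were 0.72, 0.16, 0.23, 0.13 and 0.63, and their groups overlapped. The median over the 6 genes was 0.43. DESeq2 called 3 of 11 neighbours higher, against 12.2% of all genes it tested. They were Rnf149 (DESeq2 adjusted p = 0.0422) and Creg2 and Slc9a2, which had few counts and had not been tested by edgeR. With so few neighbours tested, none called out of 6 is near the share of all genes and does not set them apart. No test of the difference between the cluster and its neighbours was made.

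**Figure D4:**
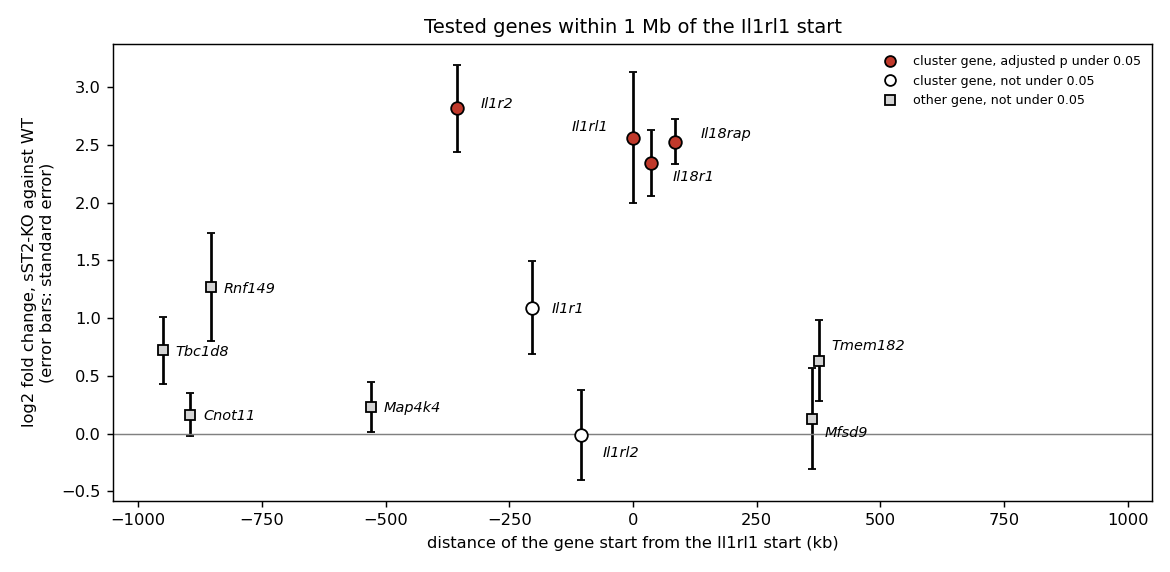
Log2 fold change in sST2-KO against WT BAT (vertical axis, error bars for the standard error) of each tested gene within 1 Mb of the Il1rl1 start, by the distance of its start from that of Il1rl1 in kb. Il1r2, Il1rl1, Il18r1 and Il18rap lie between 2.34 and 2.82, Il1r1 and Il1rl2 lie lower, and the 6 other genes lie between 0.13 and 1.27.

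Several ligands and soluble inhibitors of the same family were also more abundant in sST2-KO BAT, with a wide spread among the sST2-KO libraries. Of 10 such genes in the table, 4 were tested and 3 were called higher (Il1b, Il1rn and Il18), against 10.5% of all genes. None of the 3 was called when WT replicate 1, 2 or 3 was left out. Il1b, which encodes the ligand of Il1r1 and Il1r2, had 14, 29 and 28 counts in WT and 464, 111 and 1948 counts in sST2-KO libraries, with a log2 fold change of 5.00 (SE 1.06, adjusted p = 0.0213 by edgeR's quasi-likelihood test). Il1rn, which encodes the antagonist of Il1r1, had 30, 90 and 15 counts in WT and 479, 174 and 1584 counts in sST2-KO libraries, with 3.98 (SE 0.92, adjusted p = 0.0266). For both genes, the order of the sST2-KO libraries was the same, with replicate 3 highest and replicate 2 lowest. The ratio of Il1rn to Il1b counts overlapped between the groups (0.536 to 3.10 in WT and 0.813 to 1.57 in sST2-KO libraries, exact two-sided permutation p = 0.6).

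Il18, the ligand of Il18r1, had 43, 29 and 16 counts in WT and 94, 80 and 367 counts in sST2-KO libraries, with a log2 fold change of 2.57 (SE 0.68, adjusted p = 0.0387 by edgeR's quasi-likelihood test). It was also not called without sST2-KO replicate 3. Il18bp, whose product neutralizes IL-18, had 61.6, 60.6 and 38.0 CPM in WT and 50.5, 100.03 and 118 CPM in sST2-KO libraries, with 0.74 (adjusted p = 0.161). The ratio of Il18bp to Il18 counts was 15.3, 22.2 and 19.3 in WT and 7.70, 10.5 and 3.26 in sST2-KO libraries. The inhibitor was thus less abundant relative to its ligand in each sST2-KO library, by -1.54 on the log2 scale (exact two-sided permutation p = 0.1, adjusted p = 0.15 over 6 ratios).

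Il1a, another ligand of Il1r1, had 5, 7 and 1 counts in WT and 37, 5 and 152 counts in sST2-KO libraries and was not tested. Il1f9, which encodes IL-36γ, a ligand of Il1rl2, had 2, 5 and 4 counts and 61, 3 and 180 counts. Both were near the WT level in sST2-KO replicate 2, and DESeq2 called both higher (adjusted p = 0.00248 and 0.000720). Il1f6, which encodes IL-36α, had 17 counts in sST2-KO replicate 3 and 0 in the other 5 libraries, and Il1f5, Il1f8 and Il1f10 had no counts. Of the other receptors of the family, Sigirr, an inhibitor of IL-1 receptor signalling, had 5.69, 6.50 and 4.32 CPM in WT and 11, 14.8 and 8.10 CPM in sST2-KO libraries. It was not called (log2 fold change 1.03, adjusted p = 0.0556 by edgeR's quasi-likelihood test), while DESeq2 called it (adjusted p = 0.0288). Il1rapl2 had 1 count in all and Il1rapl1 had none.

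Below the receptors, 20 genes of MyD88 and NF-κB signalling were tested, and 6 were called higher and 0 lower, against 10.5% and 9.10% of all genes. Tnfaip3 and Nfkbiz, both of which are induced by NF-κB, had the largest differences. Tnfaip3, which encodes the inhibitor A20, had 11.1, 12.1 and 6.90 CPM in WT and 102, 61.3 and 113 CPM in sST2-KO libraries, with a log2 fold change of 3.20 (SE 0.32, adjusted p = 0.00900 by edgeR's quasi-likelihood test). It was called with each library left out. Nfkbiz had 1.45 (adjusted p = 0.0136), which was not called without WT replicate 3. The adaptor Myd88 had 61.9, 48.8 and 40.8 CPM in WT and 78.3, 101 and 100.1 CPM in sST2-KO libraries (0.88, adjusted p = 0.0307), and Nfkb1 had 0.87 (adjusted p = 0.0211). Neither was called without WT replicate 2 or 3 or sST2-KO replicate 2 or 3. Nfkbia and Traf6 were the other genes called higher, and neither was called with any library left out. The median over the 20 genes was 0.49. The other 14 genes, the IRAK kinases among them, were not called.

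**Figure D5:**
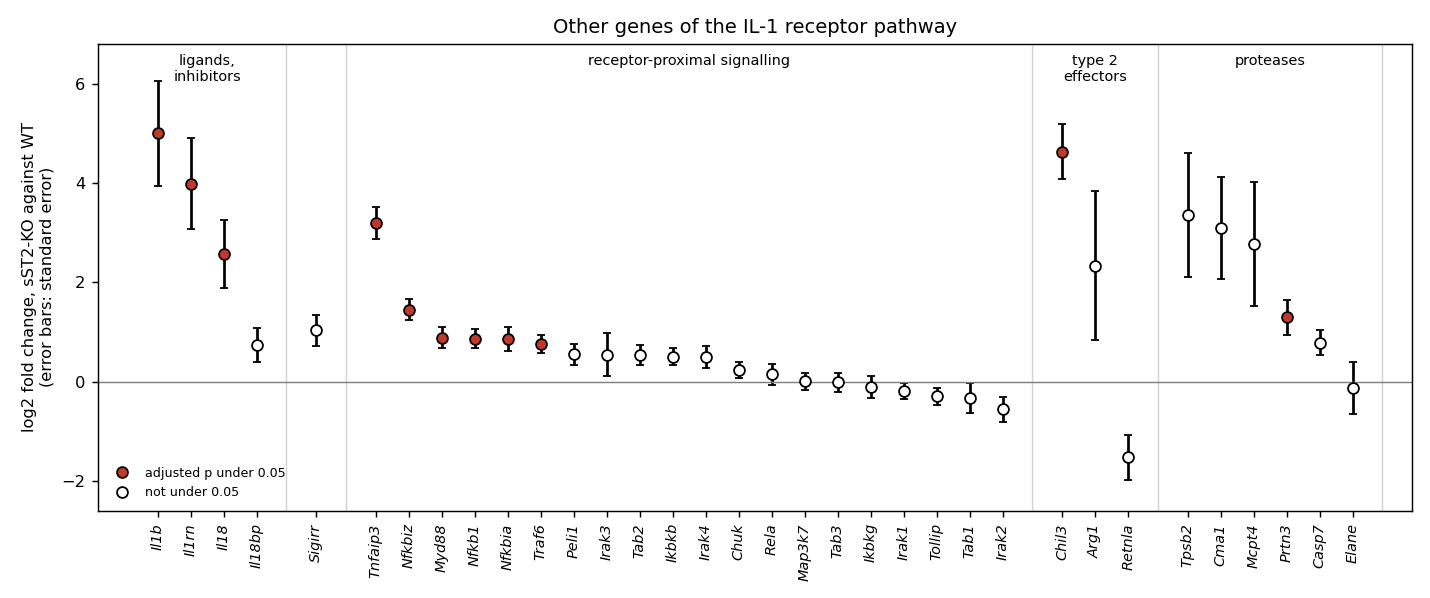
Log2 fold change in sST2-KO against WT BAT (vertical axis, error bars for the standard error) of tested genes that encode ligands and inhibitors, the receptor Sigirr, receptor-proximal signalling proteins, type 2 effectors and proteases that process IL-33. Filled points have an adjusted p under 0.05, and all of them lie above 0.

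IL-33 is known to induce type 2 cytokines and genes of alternatively activated macrophages through ST2L. Of 11 type 2 effector genes, 3 were tested and 1 was called higher, against 10.5% of all genes. The cytokine genes Il4, Il5, Il9 and Il13 had at most 4 counts in any library. Chil3, which encodes a chitinase-like protein of alternatively activated macrophages and of neutrophils, had 29.5, 8.58 and 10.7 CPM in WT and 373, 287 and 552 CPM in sST2-KO libraries, with a log2 fold change of 4.63 (SE 0.56, adjusted p = 0.0100 by edgeR's quasi-likelihood test). It was not called without WT replicate 3. Retnla, also a gene of alternatively activated macrophages, differed the other way, with 4.48, 4.43 and 5.67 CPM in WT and 0.767, 2.49 and 1.88 CPM in sST2-KO libraries, without overlap. Its log2 fold change of -1.53 was not called (adjusted p = 0.0523), but was called by DESeq2 (adjusted p = 0.0186). Arg1 spread from 0.986 to 85.3 CPM in WT and from 20 to 363 CPM in sST2-KO libraries and was not called (2.34, adjusted p = 0.302).

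IL-33 is cut by proteases of neutrophils and mast cells into more active forms. Of 8 genes of proteases that process IL-33, 7 were tested and 2 called higher, against 10.5% of all genes. One of these was Prtn3, a protease gene of neutrophils, with 3.73, 4.52 and 2.10 CPM in WT and 6.83, 8.19 and 10.6 CPM in sST2-KO libraries. Its log2 fold change was 1.29 (SE 0.36, adjusted p = 0.0435 by edgeR's quasi-likelihood test), and it was not called with any library left out. The mast cell proteases Cma1, Mcpt4 and Tpsb2 had log2 fold changes of 3.09, 2.77 and 3.36 and were not called. Their values rested on sST2-KO replicate 3, in which they had 330, 228 and 276 counts, whereas no other library had more than 52 counts of any of them. That library also had the highest level of every member, not only of Il33 and Il1rl1.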

How the data were processed

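BAT of 3 WT and 3 sST2-KO mice was analyzed by RNA-seq. The authors aligned paired-end reads to mm39 with HISAT2 (2.2.1 in the submitters' processing notes, which also name FastQC 0.12.1) and deposited htseq-count counts per gene symbol, without normalization. The version of htseq-count and its use of strand are not given in the sources used here. Samples were grouped by the sample labels, and 0 columns were left unused. Of 35976 rows, 11377 had no count.

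The comparison used edgeR 4.0.16 in R 4.3.3 (filterByExpr, TMM, glmQLFit and glmQLFTest, no covariate, Benjamini-Hochberg over 14542 genes). The study's methods name DESeq2 and a fold change above 2, which were alternatives, with DESeq2 1.42.0. All 4 members called also passed the 2-fold limit. Ratios were compared on the log2 scale with an exact permutation test, which cannot give a p below 0.1 with 3 against 3. Totals of 8159442 to 12874809 counts limit the precision of members with few counts, such as Il1rl1. The paper gives 3 mice per group, and the labels only number the samples of a group. The edgeR p-values test the group difference against the spread between libraries, which is estimated with information shared across genes. No library was a copy of another (chi-square per degree of freedom 36.6 to 104 within groups).

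The other alternatives were leaving out each library, scaling by RLE factors or by total counts, testing without a filter or only genes with 10 counts or more in each sample, robust dispersions and a block for the replicate number. For the pathway and neighbour counts, these were added after the data were seen. The members, gene lists and markers were chosen with earlier results of these data known. The text names all members, the ligands and receptors with a count, up to 4 genes of each other pathway list with the largest absolute change, the tested neighbours, and the 5 genes most like Il1rl1 and Il33. Other genes named (Nfkbia, Traf6, Prtn3, Creg2, Slc9a2, the type 2 cytokines and cell type markers) were chosen after their values were seen. Positions and exon lengths are from GENCODE M39 on GRCm39, which is mm39. All 8 members matched RefSeq promoter sequences. Of the genes these rules name, 2 are not reported here. The steps were tested on simulated data. Plots were made with Python 3.11.15 and matplotlib 3.10.9.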

Additional observations from a re-analysis of the deposited data

How the results depend on the processing

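Of the members' log2 fold changes under 13 alternatives, 85 kept their direction and side of the threshold, 10 lost the call, 2 gained it and 6 changed sign, all 6 of Il1rl2. Il1rl2 was 0.26 with total counts, 0.019 with at least 10 counts in every sample, 0.099 without WT replicate 1, 0.064 without WT replicate 3, 0.21 without sST2-KO replicate 1 and 0.15 without sST2-KO replicate 2. With any library left out it lay between -0.54 and 0.21. Il1rl1 could not be fitted with at least 10 counts in every sample, as WT replicate 3 had 6.

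With a library left out, the members called higher numbered 1 (without WT replicate 3, only Il18rap) to 5 (without sST2-KO replicate 1, Il33 included), and 0 were called lower. Genes called higher numbered 36 to 1502 and genes called lower 22 to 1189, against 1524 and 1323 with all libraries. WT replicate 3 gave the lowest numbers, and the counts without WT replicate 2 (393 and 483) and sST2-KO replicate 3 (724 and 692) were also over 1.5 times lower. Ligands and inhibitors called higher ranged from 0 to 5, signalling genes from 1 to 4, proteases from 0 to 2, type 2 effectors from 0 to 1 and neighbours of Il1rl1 from 0 to 1.

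DESeq2 called 5 ligands and inhibitors, 1 other receptor, 5 proteases and 3 neighbours higher and 1 type 2 effector lower. Of all genes it tested, it called 2072 higher (12.2%) and 1846 lower (10.9%). Without a filter, 5 ligands and inhibitors and 1 neighbour were called higher. Sigirr was called with total counts and with at least 10 counts in every sample, so 1 other receptor was called, and Retnla was called lower in the latter, so 1 type 2 effector was. Total counts raised the median log2 fold change of all genes from 0.034 to 0.29 and the share of higher genes among those called from 53.5% to 71.0%. Il1r1 was called only by DESeq2.

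The replicate number as a block left 2 residual degrees of freedom. It called 0 genes higher and 0 lower, and so 0 members, ligands, signalling genes, proteases and type 2 effectors, with 4623 genes at an unadjusted p under 0.05. The 4 members called without the block had adjusted p of 0.0644 (Il1r2, Il18r1 and Il18rap) and 0.0880 (Il1rl1). The labels do not say whether the numbers pair the samples. Deviations from the group mean correlated between same-numbered samples at -0.058, 0.21 and -0.31, which cannot decide it with 3 libraries a group. The causes of these changes were not tested.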
